A study of Mus musculus with 11 samples.

Results

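Distal ZIC2-only peaks are positions in mouse epiblast stem cells (EpiSCs) where ZIC2 gave a ChIP-seq peak far from any gene start and none of 4 other transcription factors (TFs) gave a peak at the same place. They were selected on the EpiSC peak lists alone, as ZIC2 peaks on chromosomes 1 to 19 and X, at most 2000 bp wide, with a midpoint more than 5000 bp from every annotated transcription start site (TSS), and sharing no base with an EpiSC peak of OTX2, SOX2, POU5F1 or POU3F1. Of 122053 ZIC2 peaks, 121805 lay on these chromosomes, 112162 of those were narrow enough, 73591 were also distal, and 62234 had no peak of another TF. The last number is 51.0% of the whole ZIC2 list and 84.6% of its distal narrow peaks. Among the 11357 distal peaks left out for another TF, 7858 overlapped an OTX2 peak, 2295 a POU5F1 peak, 1654 a SOX2 peak and 1054 a POU3F1 peak, with some overlapping several.

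EpiSCs are a cell line model of the postimplantation epiblast and were of 129/Sv origin. The cells were grown without feeders in medium with activin (20 ng/ml) and Fgf2 (10 ng/ml), and in the cultures called EpiSCA activin was withdrawn for 18 h before harvest. In all cultures the TF under study was expressed from a transiently transfected CAGGS vector, together with the biotin ligase BirA, as a fusion with the biotinylation sequence BLRP, and chromatin with a mean fragment length of 150 bp was collected on streptavidin. The tagged factor was therefore present in addition to the cell's own. There was 1 library for each TF in each culture, so no value below has a replicate error, all intervals are 95% Wilson intervals that cover counting error only, and a difference between EpiSC and EpiSCA lists compares 2 libraries rather than the conditions. How deeply the libraries were sequenced is not known from the lists.

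ZIC2 is a zinc finger TF of the GLI/GLIS/ZIC superfamily, and it is known for roles in the epiblast, the neural plate and the midline of the forebrain. ZIC proteins bind GC-rich sequences, of which CAGCAGG, read as CCTGCTG on the other strand, is a well-known core. Distal regulatory regions are often bound by several TFs together, and OTX2, SOX2, POU5F1 and POU3F1 are all TFs of the epiblast or the early neural plate.

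The sequences below, read from mm9 on the plus strand, are examples of the core in high-scoring peaks. They were picked for holding it, and not all of the strongest peaks do. They come from 3 of the highest-scoring ZIC2-only peaks with a CAGCAGG or CCTGCTG within 100 bp of the midpoint and no repeated sequence there, and the capitals mark the core. The one at Tspan18 is intronic, and the others are intergenic, with Ciita and Upf2 as nearest protein-coding genes.
Tspan18 intron, chr2:93057705-93057765: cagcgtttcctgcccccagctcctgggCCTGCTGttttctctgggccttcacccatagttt
near Ciita, chr16:10465380-10465440: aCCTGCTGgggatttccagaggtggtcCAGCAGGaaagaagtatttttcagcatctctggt
near Upf2, chr2:5992732-5992792: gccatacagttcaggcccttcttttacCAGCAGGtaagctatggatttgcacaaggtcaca

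A further 120 bases come from the ZIC2-only peak that held most copies of the core, 79, which lies on chromosome 17 from 74433903 to 74435425 with Srd5a2 as nearest gene. Its score was only 169, and 172 in EpiSCA.
near Srd5a2, chr17:74434960-74435079: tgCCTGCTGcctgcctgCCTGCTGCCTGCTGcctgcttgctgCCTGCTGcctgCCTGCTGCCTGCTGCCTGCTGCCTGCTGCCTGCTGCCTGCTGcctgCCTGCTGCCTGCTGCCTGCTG

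The peak score is the MACS score, which rises with the significance of a peak over the input and was at least 50 in every list. The scores of the ZIC2-only peaks ranged from 50 to 3224 with a median of 131, and 38.1% were under 100. Scores of 1000 or more were reached by 2.60% of them. Peaks were 781 bp wide in the median, and 26.96% were 1000 bp or wider. The median distance to the nearest TSS was 22202.5 bp, 74.8% of the midpoints were within 50 kb of a TSS and 10.8% were beyond 100 kb. The 7858 distal ZIC2 peaks with OTX2 had a median score of 161 and a median width of 837 bp, and their median distance to a TSS was 18660 bp. The 29567 ZIC2-only peaks within 5 kb of a TSS had a median score of 179. The limits of the selection cut through continuous ranges. Within 100 bp of the distance limit, 340 peaks inside it had a median score of 130 and 363 outside it had a median of 133, and within the same margin of the width limit, 483 peaks inside and 409 outside had medians of 695 and 745. A further 1237 ZIC2-only peaks lay less than 100 bp from a peak of another TF, with a median score of 120.

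The 8 peaks with scores above 3100 lay near genes of varied kinds. The highest, with a score of 3224, lay on chromosome 5 from 144108507 to 144109708, 9909 bp from the TSS of Grid2ip, which encodes a scaffold protein of cerebellar synapses. Others were in introns of Gm5887, Elfn1, Trpm3 and Tspan18, or were intergenic near Zfp428 and Ciita. Over their whole width, the peaks at Grid2ip, Elfn1, Trpm3 and Zfp428 held 0 exact copies of CAGCAGG. Those at Gm5887, Tspan18 and Ciita held 1, 3 and 3 copies. Elfn1 encodes a synaptic adhesion protein, Trpm3 encodes a cation channel, and Ciita encodes the transactivator of MHC class II genes. All 8 had an EpiSCA ZIC2 peak with a score of 3100. A score of exactly 3100 was shared by 25 other ZIC2-only peaks, so the order among the strongest peaks is not resolved. One of these, on chromosome 5 from 77710205 to 77712008, had its midpoint in a coding exon of Rest, which encodes a repressor of neuronal genes, and another, in an intron of Usp6nl, held 24 copies of the core.

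The bases at the midpoints of the ZIC2-only peaks were rich in G and C and held the ZIC core far more often than their surroundings. The GC content of the 201 bp around the midpoint was 54.5% ± 4.80 (SD over 62233 windows), against 46.3% in windows of equal size centred 2500 bp to either side and 40.8% at 204347 positions spaced 10 kb apart that were also distal. CpG-island-like windows, with at least 50% GC and an observed over expected CpG ratio of at least 0.6, made up 2.04% (1.93 to 2.15) of the ZIC2-only windows. This was more than the 0.822% (0.774 to 0.874) of their flanks and the 0.434% (0.406 to 0.464) of the spaced positions. It was less than the 3.46% (3.08 to 3.89) of distal peaks with OTX2 and the 16.4% (15.98 to 16.82) of ZIC2-only peaks near a TSS. CAGCAGG on either strand was found in 20.6% (20.3 to 20.9) of ZIC2-only windows, in 6.49% (6.35 to 6.63) of flanking windows and in 3.404% of the spaced positions. The ratio of centre to flank was 3.17, although 60.99% of the ZIC2-only peaks had another ZIC2 peak within 5000 bp, so that flanking windows were not free of ZIC2. The other 79.4% of windows held no exact copy of these letters, 17.8% held 1 copy and 0.495% held 3 or more. The matches were centred on the midpoint, with 2.78 per 100 peaks in the 20-bp bin just before it, or 4.11 times the level at 400 to 500 bp.

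**Figure D1:**
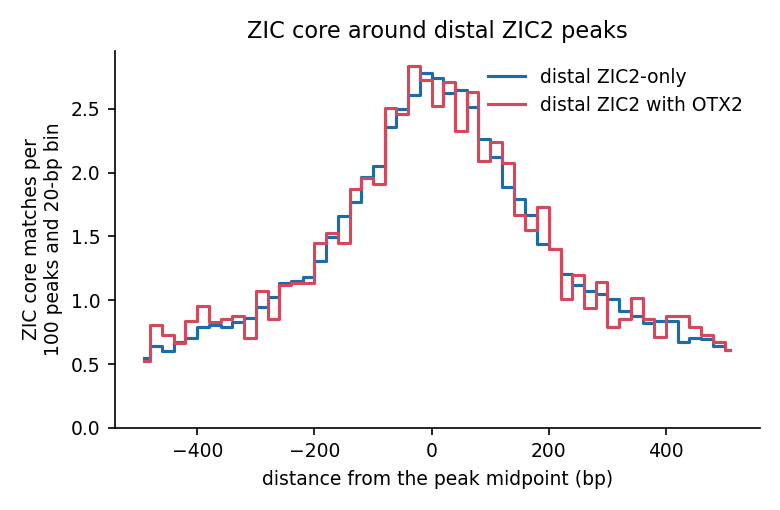
CAGCAGG matches on either strand per 100 peaks in 20-bp bins (vertical axis) by distance from the peak midpoint in bp (horizontal axis), for the 62234 distal ZIC2-only peaks (blue) and the 7858 distal ZIC2 peaks with OTX2 (red). Both curves rise to about the same height at the midpoint, 2.78 in the bin just before it for the ZIC2-only peaks.

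Peaks with OTX2 held the core in 21.1% (20.2 to 22.0) of windows, an interval that overlaps that of the ZIC2-only peaks. Other words differed in share between these peaks and the ZIC2-only ones. The selection kept OTX2, SOX2, POU5F1 and POU3F1 peaks out of the ZIC2-only set. The set with OTX2 was defined by an OTX2 overlap and could also overlap SOX2, POU5F1 or POU3F1 peaks. Differences in the OTX and POU words are therefore a description of sets defined by these TFs. GGATTA, the core of OTX-type homeodomain sites, was in 3.67% (3.52 to 3.82) of ZIC2-only windows, below the 7.48% in their flanks. It was in 7.47% (6.91 to 8.07) of windows with OTX2, against 8.48% (8.05 to 8.93) of their own flanks and 8.01% of the spaced positions. GGATTA was thus not more frequent at the centres than in the flanks in either set. ATGCAAA, part of the POU octamer, was in 2.48% (2.36 to 2.60) against 5.33% (4.86 to 5.85), and TGANTCA, the AP-1 site, in 7.44% (7.24 to 7.65) against 10.2% (9.59 to 10.9). The SOX word ACAATG was in 7.56% (7.35 to 7.77) against 7.62% (7.06 to 8.23), and the E-box CAGCTG in 21.2% (20.8 to 21.5) against 21.4% (20.5 to 22.3), intervals that overlapped. The flanks of ZIC2-only peaks held the E-box in 10.2% of windows. In the ZIC2-only peaks, the words searched for SOX, POU, OTX, FOX and TCF/LEF factors were all lower at the centres than in the flanks. In the peaks with OTX2, ATGCAAA was in 5.33% of centres against 3.51% (3.24 to 3.81) of flanks, and the other words of these factors were lower at the centres. The GC content of centre and flank differed as given above for the ZIC2-only peaks, and its part in each ratio was not tested.

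Because GC content alone moves such counts, the core was also set beside words made of the same letters. Among the 60 words of 7 letters, counted with their reverse complements, that have the letters of CAGCAGG and hold no CG, the core had the highest ratio of centre to flank, 3.24, whereas the median ratio of the words was 1.60 and the lowest 0.927. This count left out ZIC2-only peaks with repeated sequence, described next, and was chosen after seeing the data.

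Part of the ZIC2-only peaks lay in a sequence that is repeated through the mouse genome and holds almost no exact ZIC core. The 10 words of 7 letters with the highest ratio of centre to flank, among words in at least 2% of central windows, had ratios from 8.71 for CCCGCAA, with CCAATCG next at 8.66, down to 6.02 for ACTCGAG, and none of them was the ZIC core. They led back to 2082 ZIC2-only peaks, 3.35% of the total (3.21 to 3.49), whose central windows shared words of 24 letters with at least 300 others. The word shared by most of them, 997, is shown because it identifies the sequence. It holds AAGCAGG, which departs from CAGCAGG in its first letter only, and whether ZIC2 binds there was not tested.
word of 24 bases shared by 997 peaks: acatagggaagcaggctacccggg

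This word occurred 6805 times on chromosomes 1 to 19 and X of mm9, and the most frequent distance between neighbouring copies was 208 bp (3137 cases), followed by 201 bp (503 cases). Tandem units of about this length are known from the 5′ promoters of A-type LINE-1 retrotransposons of the mouse. No repeat annotation was used here, and the identity of the sequence was not tested. EpiSC ZIC2 peaks of any width and place covered 3132 of the 6805 copies, 46.03% (44.8 to 47.2). EpiSCA ZIC2 peaks covered 1996 copies, 29.3% (28.3 to 30.4), in a list of 109305 peaks against 122053 in EpiSCs. Whether this difference is particular to the repeat was not tested. Peaks of the other TFs covered between 0 copies (OTX2) and 9 copies (POU3F1) in EpiSCs, and between 3 copies (OTX2) and 29 copies (POU3F1) in EpiSCA. The word was picked as the one shared by most ZIC2-only peaks, which overlap no EpiSC peak of these TFs. The EpiSC difference between ZIC2 and the other TFs is therefore in part set by the selection, which did not use the EpiSCA lists. Copies were grouped into arrays where neighbours were within 250 bp. The share of arrays with an EpiSC ZIC2 peak was 42.9% (40.1 to 45.8) of 1144 lone copies and 52.7% (49.3 to 56.0) of 850 arrays of 2 copies. It was 53.4% (48.9 to 57.9) of 470 arrays of 3 copies and 66.0% (61.7 to 70.1) of 485 arrays with 4 or more copies. A peak anywhere from the first to the last copy counted, so longer arrays offered more bases to overlap, and these shares do not compare copies of equal length. Peak lists do not show from which copy a read came, and the sources used here do not say how reads that align to several copies were placed.

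**Figure D2:**
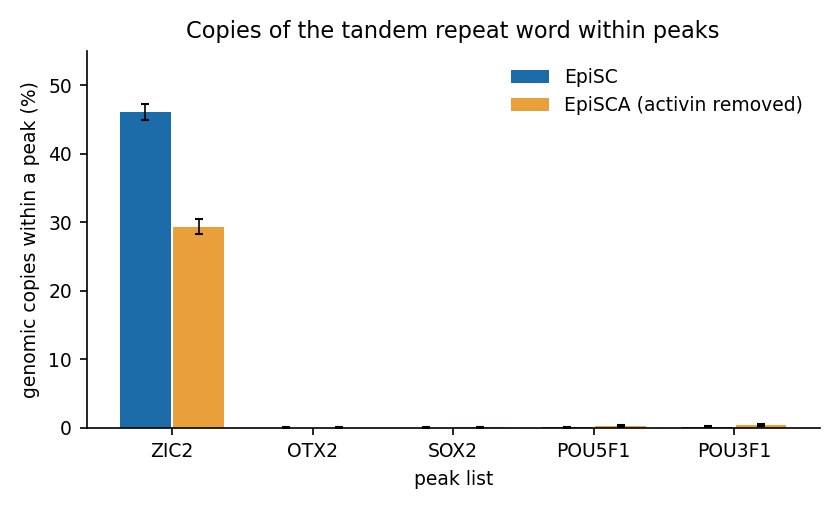
Share of the 6805 genomic copies of the 24-base word that lay within a peak (vertical axis, %) for each of the 5 TFs (horizontal axis) in EpiSCs (blue) and after activin removal (EpiSCA, orange), with bars for 95% Wilson intervals. ZIC2 peaks covered 46.03% and 29.3% of the copies, and each of the other 8 lists covered under 1%. The word was picked from ZIC2-only peaks, which overlap no EpiSC peak of the other TFs, so the EpiSC difference is in part set by the selection.

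The 2082 repeat-containing peaks differed from the other 60152 ZIC2-only peaks in most measures. CAGCAGG was in 0.432% (0.228 to 0.820) of their central windows, against 21.3% (20.9 to 21.6), and their GC content was 60.9% ± 2.77 (SD) against 54.3% ± 4.70. Their median score was 94.4 against 133, and 79.0% (77.2 to 80.7) were intergenic against 48.2% (47.8 to 48.6). The X chromosome held 195 of them, 18.95% (16.7 to 21.5) of its 1029 ZIC2-only peaks, and chromosome 3 held 192, 8.12% (7.08 to 9.29) of its 2365. On chromosome 11, which has the most ZIC2-only peaks per Mb, they were 1.34% (1.02 to 1.74). In all, 5.88% (5.70 to 6.07) of the ZIC2-only peaks held a word of 31 letters present at least 100 times in mm9 at 1 or more of 5 places around the midpoint. That share was 3.89% (3.49 to 4.34) in distal peaks with OTX2, 1.84% (1.70 to 2.003) in ZIC2-only peaks near a TSS and 17.4% (17.2 to 17.5) at the spaced positions. Without these high-copy peaks, none of the former leading words remained in the first 10. These then had ratios from 3.34 for CCGCAGG down to 2.52 for CCTGCCG, and CAGCAGG was second and the most frequent of them, in 21.6% of windows.

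Most of the ZIC2-only positions carried a ZIC2 peak again after activin removal. Of the 62234 peaks, 46324 overlapped an EpiSCA ZIC2 peak, a share of 74.4% (74.1 to 74.8). EpiSCA ZIC2 peaks covered 1.74% of windows of 781 bp at the spaced positions, which were chosen outside EpiSC ZIC2 peaks. The other 15910 positions had no EpiSCA ZIC2 peak. These had a median EpiSC score of 70.1, against 178 for those found again, and 20.7% (20.1 to 21.3) of them had an EpiSCA ZIC2 peak within 1000 bp. Among the 46324 peaks found again, the scores in both cultures ran in parallel, with a Spearman rho of 0.807, given as a description because peaks of one list share a library.

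The share found again rose with the EpiSC score. The peaks were divided by score into 5 bands of equal number, with limits at 69.99, 104.02, 168 and 320, and from the lowest band to the top band the share was 36.2% (35.4 to 37.1), 58.3% (57.5 to 59.2), 81.1% (80.4 to 81.8), 96.5% (96.2 to 96.9) and 99.9% (99.88 to 99.97). Distal ZIC2 peaks with OTX2 were found again more often in all, 79.9% (79.0 to 80.7), a difference of 5.43 percentage points (4.47 to 6.37). Within the bands, in the same order, the differences were 2.26 points (-0.575 to 5.15), 1.28 points (-1.53 to 4.04), 1.60 points (-0.502 to 3.56), 0.810 points (-0.129 to 1.56) and 0.00996 points (-0.207 to 0.0809), so that each of these intervals included 0. A difference of a few points in the lower bands remains within these intervals.

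**Figure D3:**
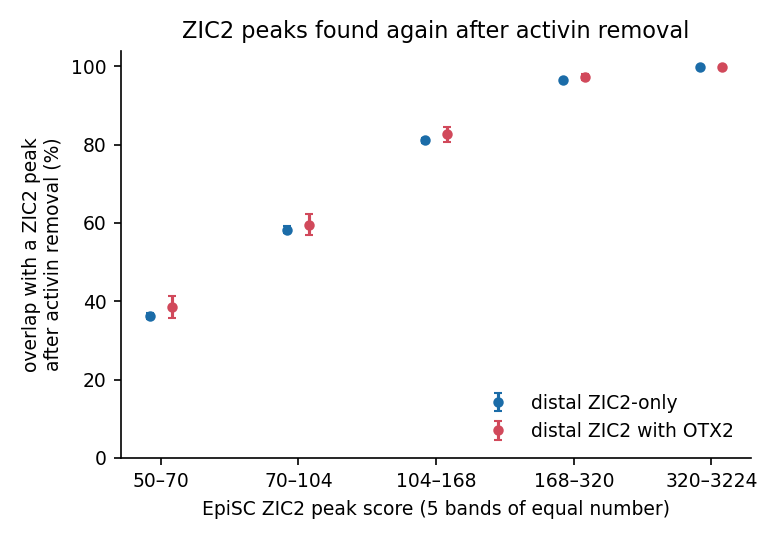
Share of peaks that overlapped a ZIC2 peak after activin removal (vertical axis, %) by EpiSC ZIC2 score, in 5 bands that each hold the same number of ZIC2-only peaks (horizontal axis), for distal ZIC2-only peaks (blue) and distal ZIC2 peaks with OTX2 (red), with 95% Wilson intervals. The shares rose from 36.2% to 99.9% in the ZIC2-only peaks, and the values with OTX2 lay beside them in every band.

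Peaks with the ZIC core were found again more often than peaks without it. The shares were 79.9% (79.2 to 80.6) of 12803 peaks with CAGCAGG in the central window and 73.0% (72.6 to 73.4) of 49431 without. The core was more frequent in high-scoring peaks, 22.1% in the top band against 19.02% in the lowest, and the difference was also seen within the lower bands. In the lowest band, 44.1% (42.1 to 46.1) with the core and 34.4% (33.5 to 35.3) without it were found again, in the next band 66.2% (64.4 to 68.1) and 56.3% (55.3 to 57.3), and in the middle band 86.7% (85.3 to 87.9) and 79.7% (78.9 to 80.5). In the band above, the shares were 97.6% (96.98 to 98.2) and 96.3% (95.9 to 96.6), and in the top band they were 100% (99.86 to 100) and 99.93% (99.85 to 99.97), with intervals that overlapped. The repeat-containing peaks were found again less often, 62.8% (60.7 to 64.8) against 74.8% (74.5 to 75.2) of the other ZIC2-only peaks. Within the lowest band these shares were 38.1% (34.2 to 42.1) and 36.1% (35.3 to 37.0), in the next band 53.6% (49.6 to 57.5) and 58.6% (57.7 to 59.5), and in the middle band 76.1% (72.2 to 79.6) and 81.3% (80.6 to 82.0).

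Few of the positions had a peak of another TF after activin removal. EpiSCA peaks overlapped 1369 ZIC2-only peaks for OTX2, 2.20% (2.09 to 2.32), 1030 for SOX2, 1.66% (1.56 to 1.76), 942 for POU5F1, 1.51% (1.42 to 1.61), and 305 for POU3F1, 0.490% (0.438 to 0.548). All of these shares were below those of 781-bp windows at the spaced positions, which were 7.51%, 5.49%, 9.77% and 9.83%, respectively. The rule had already removed EpiSC peaks of these TFs from the ZIC2-only positions but not from the spaced ones. In all, 43627 positions, 70.1% (69.7 to 70.5), had an EpiSCA ZIC2 peak and none of another TF, 2697 had both, 737 had only another TF, and 15173, 24.4% (24.0 to 24.7), had no peak of any of the 5 TFs. Where the selection was repeated on the EpiSCA lists it gave 54579 peaks. Of these, 79.9% (79.5 to 80.2) overlapped an EpiSC ZIC2-only peak, 8.98% (8.75 to 9.23) another EpiSC ZIC2 peak, and 11.1% (10.9 to 11.4) none, the last with a median score of 66.6.

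The 1369 positions with an EpiSCA OTX2 peak were often next to an OTX2 peak that was already present with activin. An EpiSC OTX2 peak lay within 1000 bp of 557 of them, 40.7%, against 9.20% (8.98 to 9.43) of all ZIC2-only peaks. GGATTA was in 4.46% (3.48 to 5.68) of their central windows, against 3.64% (3.49 to 3.79) of those of ZIC2-only peaks that met no other TF in EpiSCA. The OTX2 peak with the highest score among them, 2179, was at a ZIC2-only peak on chromosome 14 from 25223226 to 25223824, which had a ZIC2 score of 71.2 in EpiSCs and 55.8 in EpiSCA and lay 1 bp from a peak of another TF in EpiSCs.

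The selection itself removes midpoints of other TFs near the ZIC2-only midpoints, as far as the peaks reach. Densities are therefore given mainly from 4000 bp outwards and as a description. From 4000 to 8000 bp, midpoints of EpiSC peaks numbered 50.1 per Mb for OTX2, 12.6 per Mb for SOX2, 19.4 per Mb for POU5F1 and 12.2 per Mb for POU3F1. From 32000 to 64000 bp the densities were 56.8, 15.4, 20.4 and 15.1 per Mb, each higher than from 4000 to 8000 bp. From 1000 to 2000 bp, where the selection may still remove midpoints, they were 45.3, 18.3, 18.9 and 10.8 per Mb. The density of SOX2 there was above its values at both farther distances, and those of OTX2, POU5F1 and POU3F1 were below theirs. An OTX2 peak was within 5000 bp of 35.5% (35.2 to 35.9) of the ZIC2-only peaks, and a peak of any of the 4 TFs within 5000 bp of 54.9% (54.5 to 55.2).

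The ZIC2-only peaks were placed in introns and in coding exons more often than spaced distal positions. Midpoints were intergenic in 49.2% (48.8 to 49.6), in introns of protein-coding transcripts in 42.6% (42.3 to 43.0), in coding exons in 3.65% (3.51 to 3.80) and in UTR exons in 1.94% (1.84 to 2.05). The corresponding shares of the spaced positions were 63.95%, 32.0%, 0.715% and 0.771%. These positions were not matched for GC content, 40.8% against 54.5%, or for distance to a TSS beyond the limit. The part of either in the differences was not tested. Distal peaks with OTX2 were in introns in 43.2% (42.2 to 44.3), an interval that overlaps that of the ZIC2-only peaks, and in coding exons less often, in 2.16% (1.86 to 2.51). The 2272 peaks in coding exons had a GC content of 58.5% ± 4.69 (SD), against 54.5% ± 4.91 in intergenic ones, and 23.3% (21.6 to 25.1) of them held the core, against 20.6% (20.1 to 21.0). Their share found again in EpiSCA was 74.3% (72.4 to 76.0), against 74.1% (73.6 to 74.6) for intergenic peaks.

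Along the chromosomes the ZIC2-only peaks followed GC content closely. Their density ranged from 6.35 per Mb of sequenced bases on the X chromosome to 33.4 per Mb on chromosome 11, which has the highest GC content of the chromosomes, 43.8%, against 39.2% on X. Over 2565 segments of 1 Mb, Spearman's rho was 0.909 with GC content and 0.596 with the number of protein-coding genes, given as a description since neighbouring segments are not independent. Segments under 38% GC held a median of 3.58 peaks per Mb, those of 42 to 44% held 22.1, and those of 48% or more held 89. Segments without a gene (276) had a median of 4 per Mb, against 33 in the 811 segments with 10 or more genes. Only 66 segments, 2.57%, had no ZIC2-only peak.

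**Figure D4:**
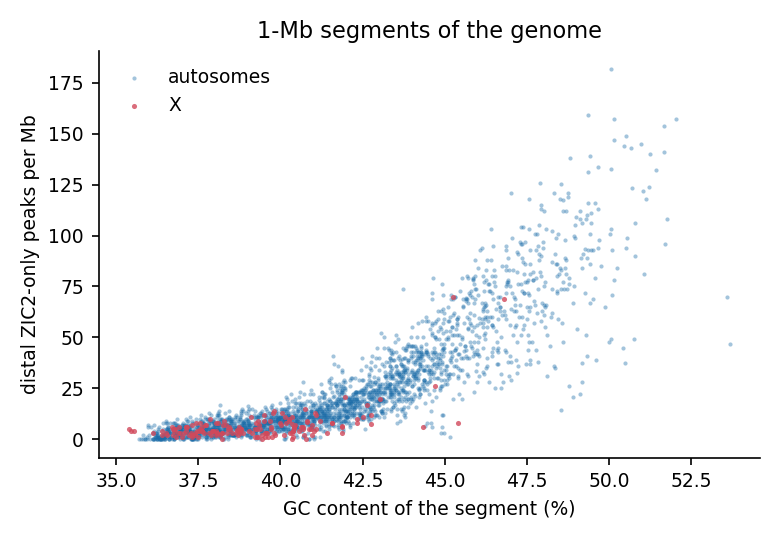
Distal ZIC2-only peaks per Mb (vertical axis) against GC content in % (horizontal axis) for 2565 segments of 1 Mb, each a point, with autosomes in blue and the X chromosome in red. Density rose with GC content, from a median of 3.58 per Mb under 38% GC to 89 per Mb at 48% GC or more, and most X segments were at the low end.

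Assigning each peak to the protein-coding gene with the nearest TSS, up to 50 kb away, placed 38941 peaks, 62.6% of the total. At least 1 ZIC2-only peak fell to 11546 of 22342 genes (51.7%), and 10 or more fell to 702 genes (3.14%). The gene with most was Camta1 (ENSMUSG00000014592.10, chr4:150433633-151235985), which encodes a calmodulin-binding transcription activator of neurons, with 51 peaks, of which 40 were found again in EpiSCA and the highest scored 2775. Rbfox3, a neuronal splicing factor gene, had 49 peaks, 46 of them found again. Then came Tns1 (47), encoding the focal adhesion protein tensin 1, Zfp423 (42), encoding a zinc finger TF of brain and fat cells, and Cux2 (40), encoding a homeodomain TF of cortical neurons. Further down the order, Ksr1, encoding a scaffold of the MAP kinase cascade, and Mad1l1, encoding a spindle checkpoint protein, had 35 each, of which 27 and 22 were found again, Dab2ip had 34, and 4933407C03Rik and Col5a1 had 33. Each of these genes had between 1 and 7 distal ZIC2 peaks with OTX2, the most at Ksr1 and Mad1l1. In all there were 7858 such peaks beside 62234 ZIC2-only peaks, so low counts at single genes do not show a scarcity of OTX2. Neither gene length nor GC content was adjusted for.

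Among pathway lists, most had a larger share of genes with a ZIC2-only peak than the 51.7% of all protein-coding genes. For the Wnt pathway, 31 of 34 genes had at least 1 peak (91.2%, 77.0 to 97.0), and 8 had 10 or more. Its ligand genes were led by Wnt11, with 17 peaks that were all found again in EpiSCA, and Wnt3 with 15. Ctnnb1, encoding β-catenin, had 14, and Lrp5, encoding a coreceptor, had 12. For the Notch pathway, 20 of 22 genes had a peak, led by the receptor gene Notch1 with 17, the target gene Hes1 with 12, the coactivator gene Maml3 with 10 and Notch3 with 7. The highest-scoring of these at Notch1, Hes1, Maml3 and Notch3 had scores of 587, 727, 278 and 1436.

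For the hedgehog pathway, whose GLI effectors recognise sequences related to those of ZIC proteins, 13 of 17 genes had a peak. Gli2 had 19, of which 16 were found again, and Hhat, encoding the acyltransferase of hedgehog ligands, had 15, of which 14 were. The receptor gene Ptch1 had 7 and the coreceptor gene Cdon 6, whereas Gli1 and Gli3 had none. The GLI-like word ACCACCC was in 4.95% (4.78 to 5.12) of ZIC2-only windows, 2.90% of their flanks and 4.03% (3.62 to 4.49) of windows with OTX2. Centres had a higher GC content than flanks, and its part in these shares was not tested.

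For the Nodal and activin pathway, of which the EpiSCA cultures lacked added activin, 20 of 25 genes had a ZIC2-only peak. Smad3, encoding a receptor-activated signal transducer, had 27 peaks, of which 23 were found again in EpiSCA, Smad7, encoding an inhibitor, had 18, of which 14 were, Inhbb, encoding an activin subunit, had 10, of which 9 were, and the corepressor gene Ski had 8, of which 6 were. Nodal itself had 5 ZIC2-only peaks and 4 distal ZIC2 peaks with OTX2. Over the list, 83 of 108 peaks were found again, 76.9%, close to the 74.4% of all ZIC2-only peaks. For the FGF pathway, 17 of 19 genes had a peak, led by Fgfr2 with 9, Fgfr1 with 8, Spred2 with 7 and Etv4 with 6.

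Among lists of developmental regulators, 18 of 20 neural plate genes had a ZIC2-only peak. Pax7 had 14, all found again in EpiSCA, Irx3 had 8 with a highest score of 1248, and En2 and Six3 had 7 each. For the primitive streak and endoderm regulators the count was 13 of 16, with 7 peaks at Gata4, 6 at T, 5 at Lhx1 and 4 at Gsc. Among genes of naive pluripotency it was 12 of 13, with 32 peaks at Esrrb, of which 26 were found again, 9 at Klf2, 7 at Prdm14 and 5 at Fgf4. Among genes of shared and primed pluripotency it was 16 of 21, with 17 peaks at Dnmt3a, encoding a de novo DNA methyltransferase, 6 each at Sall4 and Trim71, and 5 at L1td1. Genes of the NuRD complex (8 of 13, led by Mta1 with 7, Mta3 with 6 and Gatad2a with 4) and of cytosolic ribosomal proteins (8 of 24, led by Rpl3 with 9 and Rpl30 with 3) had shares with intervals that included the 51.7% of all genes, 61.5% (35.5 to 82.3) and 33.3% (18.0 to 53.3).

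**Figure D5:**
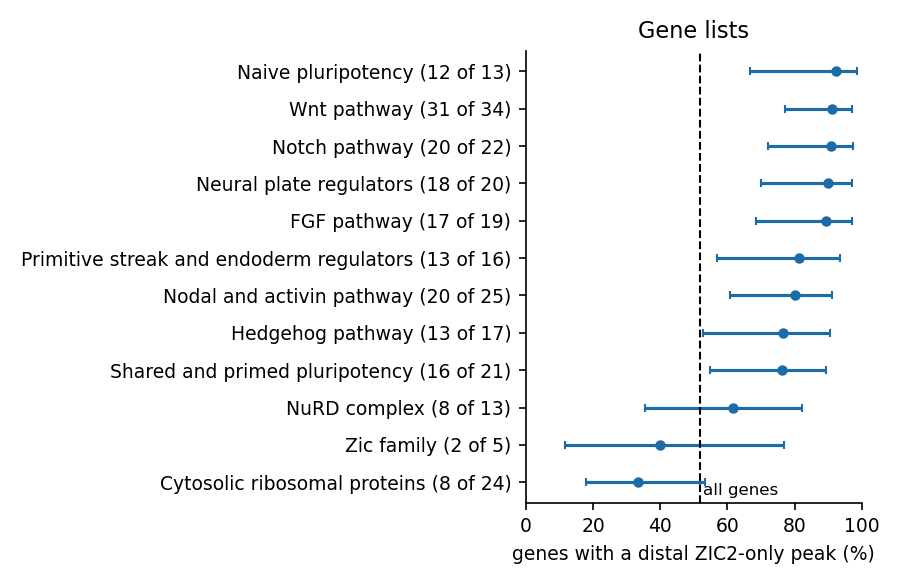
Share of the genes of each list with at least 1 distal ZIC2-only peak within 50 kb as nearest gene (horizontal axis, %), with 95% Wilson intervals and the share of all protein-coding genes, 51.7%, as a dashed line. The 9 lists from naive pluripotency (92.3%) down to shared and primed pluripotency (76.2%) lie above the line with their intervals, and the NuRD, Zic and ribosomal protein lists have intervals that cross it.

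The genes of the 5 TFs themselves had between 0 and 5 ZIC2-only peaks, beside a median of 2 over all protein-coding genes that had any. Zic2 had none and Sox2 had 1, with a score of 105. Pou5f1 had 2, both found again in EpiSCA, with a highest score of 251, and Otx2 had 3, with a highest score of 100. Pou3f1 had 5, all found again, with a highest score of 1155. Zic4 had 1 peak, while Zic1 and Zic5 had none.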

How the data were processed

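According to the study's methods, reads were aligned by Bowtie2 to the mm9 build, and MACS1.4 called the peaks against input DNA with only its band width changed from the default. The authors deposited 1 list per TF and culture, in which the score of a peak is the negative decimal logarithm of its p-value as scaled by MACS. Tool versions beyond this, read depth and the handling of reads with several alignments are not given in the sources used here, and the input was not analysed.

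TSSs, gene classes and protein-coding genes came from GENCODE vM1, which has 95414 transcripts with 86803 distinct TSSs on chromosomes 1 to 19 and X. Overlap was counted from 1 bp. Sequence was read from mm9, which is not of the cells' strain. Central windows reached 100 bp to either side of the midpoint, and the spaced positions lay 10 kb apart, more than 5000 bp from a TSS and outside EpiSC ZIC2 peaks. Repeated words of 31 bases were counted in mm9 on both strands. With 1 library per list no test was run, and shares have Wilson intervals at 95% confidence.

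Named genes were the 10 with most ZIC2-only peaks, the nearest genes of the highest-scoring peaks, up to 4 genes with most peaks of each of 12 lists, and the genes of the 5 TFs. Rest, Srd5a2 and the other genes outside this rule were named after their values had been seen. A few items that the rule selects are not reported here. The peaks, lists and words were chosen with earlier results of these data known. Repeated sequence was examined after the leading words had been seen. Overlap and word counts were checked on simulated data. Python 3.11.15, numpy 2.4.6, scipy 1.17.1 and matplotlib 3.10.9 were used.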

Additional observations from a re-analysis of the deposited data

How the results depend on the processing

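Of 51 alternatives over 6 results, 6 were chosen after seeing the data. Of the 51, 22 stayed within 1.5 times the count or within the interval of the share, and 29 moved. A reversal was defined only for the CAGCAGG ratio, as a change in whether centre or flank had the higher share, and 0 occurred. The other results could not receive this label. With a score of at least 100, the number of ZIC2-only peaks fell to 38495, the share found again in EpiSCA was 91.8%, the intron share 43.4% and the share of genes with a peak 40.8%. With a width of at most 1000 bp these were 66.9% found again, 41.3% in introns and 46.8% of genes, and the ratio of CAGCAGG in centre and flank was 3.58. Beyond 10000 bp from a TSS the ratio was 3.30, the intron share 40.8% and the gene share 39.4%. With TSSs of protein-coding transcripts only, 43.4% were in introns and 57.2% of genes had a peak. Without peaks that had another TF within 500 bp, the EpiSCA OTX2 share was 1.43% and the gene share 49.2%. On autosomes alone the gene share was 50.4%. Requiring 50% of both peaks to overlap gave 71.0% found again and an OTX2 share of 0.472%, and EpiSCA peaks with scores of at least 100 gave 54.1% and 0.855%. The CAGCAGG ratio was 3.51 in windows of 50 bp to either side, 2.60 with 200 bp and 3.26 with flanks 5000 bp away. Introns of all transcripts gave 44.8%, and the nearest gene at any distance 56.8%. Without high-copy peaks the values were 74.99% found again, a ratio of 3.24, 43.6% in introns and 49.5% of genes.

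No paired analysis was possible because each TF has 1 library in each culture. Without the reads, peaks just below the calling threshold in a list could not be looked at.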

Other observations

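The largest group of ZIC2-only peaks with neighbouring midpoints within 5000 bp held 65 peaks over 114 kb of chromosome 6, from 114443037 to 114557088, in an intergenic stretch between Hrh1 and Atg7. Scores ranged from 53.8 to 997 with a median of 324, and 64 of the 65 peaks were found again in EpiSCA. No peak of OTX2, SOX2, POU5F1 or POU3F1 lay in this stretch in either culture, beside 65 EpiSC and 67 EpiSCA ZIC2 peaks. The selection keeps EpiSC peaks of these TFs off every ZIC2-only peak, so their absence in EpiSCs follows in part from it. The stretch had a GC content of 57.5%, and 8 of the 65 central windows held CAGCAGG. Sequence recurs within the stretch, and peak lists do not show from which copy a read came, so the 65 peaks are not shown to be separate binding sites.

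Another 1737 ZIC2-only peaks, 2.79%, held a high-copy word without the words of the 208-bp repeat. CAGCAGG was in 9.38% (8.10 to 10.8) of their central windows, their GC content was 54.0% ± 5.97 (SD), and 70.6% (68.5 to 72.7) were found again in EpiSCA.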
